A study of Mus musculus with 36 samples.

Results

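Prdm1, Prdm14, Tfap2c, Nanos3 and Dnd1 help turn epiblast cells of the mouse embryo into primordial germ cells (PGCs) or keep them alive. Dppa3 is a marker of the specified cells. These 6 genes were chosen by name, out of 50957 genes listed for the bulk RNA-seq libraries, and each was read in all 11 libraries.

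The study followed mouse epiblast stem cells (EpiSCs), a primed pluripotent cell, as BMP4 induced them toward naive pluripotency through cells with a PGC-like program, a process called BiPNT. RNA-seq was available for 3 libraries of EpiSCs, for Day 3 cells sorted with an antibody to c-Kit into 2 c-Kit+ and 2 c-Kit- libraries, and for 2 libraries of sorted Day 6 BV+SC+ cells. A further Day 3 culture was sequenced with and without SGC0946, an inhibitor of the histone H3 lysine 79 methyltransferase DOT1L, with 1 library each. EpiSCs were kept with Activin A, bFGF and XAV939. All Day 3 cells were in the BMP4 medium with vitamin C, bFGF, LiCl, LIF and CHIR99021, to which the protocol adds the EZH2 inhibitor EPZ6438 and a DOT1L inhibitor, either EPZ5676 or SGC0946. Which of these 2 inhibitors the sorted populations received is not in the labels, and whether the library without SGC0946 kept EPZ6438 is not there either. BV+SC+ cells had this medium with EPZ5676 and EPZ6438 for 3 days and then N2B27 with PD0325901, CHIR99021 and vitamin C until Day 6 in the labels' protocol, a medium to which the study's methods add LIF. Their 2 libraries carry different labels, however, 2iJi for replicate 1 and GK15 for replicate 2, and the study also names GK15 as another medium of the later stage. In another experiment the study added a JAK inhibitor in the later stage, and whether Ji stands for that inhibitor is not known here. The 2 libraries may thus not be replicates of 1 condition, the label and the replicate cannot be told apart, and each SD given for BV+SC+ cells spans both labels.

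BV and SC are reporter transgenes of Prdm1 (Blimp1) and Dppa3 (Stella), and BV+SC+ cells were sorted for both. High Prdm1 and Dppa3 in those cells is therefore a check of the sort and not a finding, and whether reads of the transgenes add to the counts of these 2 genes was not tested. The labels do not state that the EpiSC libraries come from the reporter line. The labels do not say whether replicates are separate cultures, so p-values measure only the spread between these libraries. In bulk RNA, fewer cells that express a gene and less RNA per cell cannot be told apart.

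In the embryo, BMP4 from the extraembryonic ectoderm, together with WNT3, starts germ cell fate in a few cells of the posterior epiblast. PRDM1 (BLIMP1) represses the somatic program there, PRDM14 supports pluripotency genes and the loss of DNA methylation, and AP-2gamma, the product of Tfap2c, acts downstream of PRDM1. NANOS3 and DND1 are RNA-binding proteins needed for the survival of PGCs, and DPPA3 (STELLA, PGC7) is a classical marker of the specified cells that protects DNA methylation marks in the early embryo. Tfap2c also has a role outside the germ line, in the trophoblast.

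In the GENCODE M21 annotation of GRCm38, Prdm1 (ENSMUSG00000038151) lies at chr10:44437177-44528501 on the minus strand and Prdm14 (ENSMUSG00000042414) at chr1:13113457-13127163 on the minus strand. Tfap2c (ENSMUSG00000028640) lies at chr2:172549593-172558622 on the plus strand, and Dppa3 (ENSMUSG00000046323) at chr6:122626410-122630272 on the plus strand. Nanos3 (ENSMUSG00000056155) lies at chr8:84173731-84185217 on the minus strand. All 6 genes, with Dnd1 (ENSMUSG00000044595), are protein-coding.

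The RT-qPCR primers of the study show which transcripts its other assay of these genes can see, and they are listed below for 5 of the 6 genes, all letters in lower case and 5′ to 3′.
Prdm1 forward: aagtgtgcccagtgtcacaa
Prdm1 reverse: ctgcattgtcgctgatgtcg
Prdm14 forward: tacctgtgttcaacctgtg
Prdm14 reverse: tgagtgctgtctgatgtg
Tfap2c forward: ctcacgtctctcgtggaagg
Tfap2c reverse: gtcccccaagatgtggtctc
Nanos3 forward: gggctacacttctgtctactgc
Nanos3 reverse: ttcctgccacttttggaacct
Dppa3 forward: tgtggagaacaagagtga
Dppa3 reverse: ctcaatccgaacaagtctt

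The Prdm1 pair matched 3 of 4 annotated transcripts with a product of 157 bases, and the transcript without a match was the 830-base one described below. The Tfap2c pair matched 5 of 6 transcripts with 121 bases, and the Nanos3 pair 2 of 3. The Prdm14 pair matched the only annotated transcript with 156 bases, and the Dppa3 pair both transcripts with 127 bases. No pair matched a transcript of another gene in full. For Dnd1 no primer is given here.

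RefSeq promoters, from 250 bases before to 50 after the start on GRCm38.p6, were held for 2 of the 6 genes, Prdm1 and Nanos3. They are shown because both genes were called between the Day 3 sorted groups, and capitals mark a match to a motif searched on both strands.
Prdm1, chr10:44458699-44458998, minus strand: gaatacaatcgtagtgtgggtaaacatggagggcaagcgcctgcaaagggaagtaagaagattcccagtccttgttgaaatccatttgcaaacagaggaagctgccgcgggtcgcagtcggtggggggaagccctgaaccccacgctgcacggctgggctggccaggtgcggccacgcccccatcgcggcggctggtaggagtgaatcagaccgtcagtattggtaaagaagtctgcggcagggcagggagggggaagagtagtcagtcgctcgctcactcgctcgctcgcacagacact
Nanos3, chr8:84176503-84176802, minus strand: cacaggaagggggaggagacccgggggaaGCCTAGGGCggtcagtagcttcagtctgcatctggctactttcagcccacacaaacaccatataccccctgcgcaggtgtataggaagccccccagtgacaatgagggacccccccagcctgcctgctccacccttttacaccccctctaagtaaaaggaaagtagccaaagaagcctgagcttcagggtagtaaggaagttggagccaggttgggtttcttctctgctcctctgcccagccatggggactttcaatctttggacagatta

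The only match was an AP-2 motif (GCCNNNGGC, its own reverse complement) at bases 30 to 38 of the Nanos3 promoter. That motif was in 16.6% of all 32851 promoters of the same length. The PRDM1 motif AGNGAAAG was in 8.63% of them, the T-box motif AGGTGTGA in 1.28% and the PRDM14 motif GGTCTCTAA in 0.256%, and none of these 3 was in either promoter shown. The Prdm1 window holds the start of the 5281-base coding transcript at 44458748.

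TPM, a share of all transcripts in a library, scales a count for transcript length and depth, and CPM, a share of all counts, scales it for depth only. Depth was 1726038 to 1841442 expected counts in the sorted Day 3 libraries, 2444211 to 3070115 in EpiSCs, 4577685 and 4776143 in the SGC0946 pair and 14778809 to 18099059 in BV+SC+ cells. A count of 0 allows up to 3 counts, which is 0.977 to 1.23 CPM in EpiSCs, 1.63 to 1.74 CPM in the sorted libraries and 0.166 to 0.203 CPM in BV+SC+ cells. The sorted libraries were made with another kit and quantified over a longer list of genes, so levels are set side by side across experiments and tests stay within one. As a check of the cells, the 5 primed markers Fgf5, Otx2, Dnmt3b, Pou3f1 and Sfrp2 summed to 1032 to 1102 TPM in EpiSCs and to 36.1 to 101 TPM in BV+SC+ cells. Dnmt3b alone, at 707 TPM on average, made up most of the EpiSC sum. By the test described below, 4 of the 5 were called lower in BV+SC+ cells. Otx2 was not, at 96.2 ± 18.4 TPM (SD, n = 3) in EpiSCs and 25.9 ± 30.6 TPM (SD, n = 2) in BV+SC+ cells. Kit, the gene of the sorted surface protein, was 97.8 ± 2.52 TPM (SD, n = 2) in c-Kit+ and 4.03 ± 1.11 TPM (SD, n = 2) in c-Kit- cells.

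**Figure D1:**
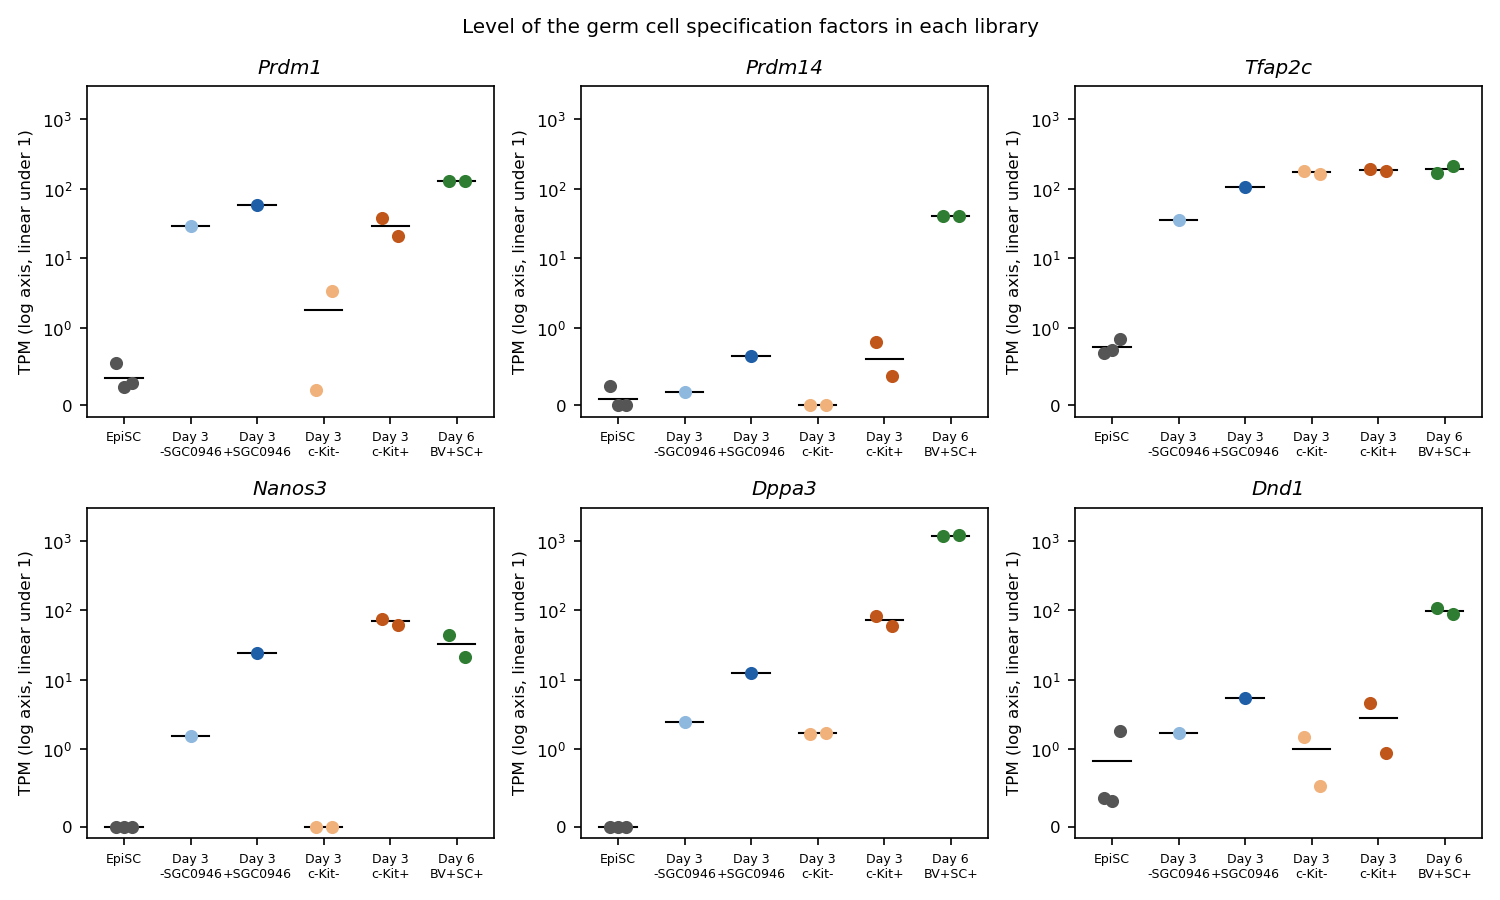
TPM of each of the 6 genes (log axis, linear under 1) in the 11 libraries by group, with a line at each group mean. EpiSCs lie under 1 TPM for every gene except 1 Dnd1 value of 1.85, the Prdm14 and Dnd1 levels are low in all Day 3 groups, and Tfap2c is at a like level in c-Kit+ and c-Kit- cells.

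In EpiSCs, all 6 genes were at or near the limit of detection. Nanos3 and Dppa3 had 0 counts in each of the 3 libraries. Prdm14 had 1, 0 and 0 counts, Prdm1 had 4, 2 and 2, Tfap2c had 3 in each, and Dnd1 had 1, 1 and 4. The highest value was 1.85 TPM, that of Dnd1 in replicate 3. No other value reached 1 TPM.

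Prdm1, the repressor of the somatic program, was present by Day 3. It was at 29.63 TPM (225 counts) without SGC0946 and 57.52 TPM (445 counts) with it. In c-Kit- cells it was at 0.20 and 3.40 TPM (1 and 7 counts), and in c-Kit+ cells at 37.55 and 20.96 TPM (127 and 87 counts). The BV+SC+ cells, sorted on a reporter of this gene, had it at 128.46 and 127.54 TPM. Both c-Kit+ libraries lay above both c-Kit- libraries. The unsorted library without SGC0946 lay within the c-Kit+ range.

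Prdm14 was close to undetected until Day 6. It had 1 count without and 4 counts with SGC0946, 0 counts in both c-Kit- libraries, and 2 and 1 counts in c-Kit+ cells. It was in BV+SC+ cells at 40.34 and 40.87 TPM (837 and 1018 counts). The 2 BV+SC+ libraries were the only ones over 1 TPM.

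Tfap2c was the only member high in all Day 3 groups. Its level was 35.52 TPM (235 counts) without and 104.9 TPM (727 counts) with SGC0946. It was at 182.01 and 165.52 TPM in c-Kit- cells, at 192.53 and 181.12 TPM in c-Kit+ cells and at 167.72 and 213.27 TPM in BV+SC+ cells. The c-Kit- and c-Kit+ ranges overlapped in TPM, though not as CPM (243 to 266 against 284 to 297), and the c-Kit+ and BV+SC+ ranges overlapped on both scales. In TPM over the genes common to both lists, given below, the c-Kit+ range overlapped neither of the others. In the c-Kit- libraries it stood at the 93.9 and 93.5 percentile of the genes with a count.

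Nanos3, the translational repressor, had its highest level at Day 3. It was at 1.54 TPM (2 counts) without and 24.66 TPM (34 counts) with SGC0946. It had 0 counts in both c-Kit- libraries, against 76.11 and 61.96 TPM (47 and 41 counts) in c-Kit+ cells. Day 6 BV+SC+ cells had 43.42 TPM (188 counts) in replicate 1 and 21.47 TPM (112 counts) in replicate 2. Both c-Kit+ values were above both BV+SC+ values, also as CPM, with 27.2 and 22.3 against 12.7 and 6.19. No test was run between these 2 groups, which differ in kit, gene list and sort.

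Dppa3, the specification marker, had its highest levels in c-Kit+ and BV+SC+ cells. Its level was at 2.49 TPM (3 counts) without and 12.7 TPM (21 counts) with SGC0946. It was at 1.68 and 1.71 TPM (1 count each) in c-Kit- cells and at 83.78 and 59.13 TPM (62 and 47 counts) in c-Kit+ cells. Sorted on its reporter, the BV+SC+ cells had it at 1162.46 and 1202.08 TPM, the 99.5 percentile of genes with a count in both libraries.

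Dnd1, a partner of NANOS proteins on RNA, was low at Day 3. It had 7 counts (1.75 TPM) without and 21 counts (5.48 TPM) with SGC0946, 2 and 1 counts in c-Kit- cells, and 7 and 2 counts in c-Kit+ cells. Its BV+SC+ values were 107.36 and 88.9 TPM (1190 and 1193 counts). The c-Kit+ and c-Kit- ranges, 0.96 to 4.64 TPM and 0.53 to 1.5 TPM, overlapped.

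By group mean, 5 of the 6 genes were highest in BV+SC+ cells and Nanos3 in Day 3 c-Kit+ cells. For Tfap2c that place is not separate from its neighbours: its means of 190 TPM in BV+SC+, 187 in c-Kit+ and 174 in c-Kit- cells were within the spread. TPM over the 28910 genes common to both lists gave another order. It was 267 and 255 in c-Kit+ cells, above 229 and 213 in c-Kit- and 168 and 214 in BV+SC+ cells. On that scale Tfap2c was highest in c-Kit+ cells, which left 4 of 6.

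With and without SGC0946 at Day 3, the comparison asks which genes follow DOT1L inhibition, and with 1 library a group it has no replicate check. A gene was taken as changed where the log2 ratio of TPM + 1 exceeded 1 in size, and 4 of the 5 members with TPM over 1 were higher by that rule: Nanos3, Dppa3, Tfap2c and Dnd1. Of 14038 genes, 889 (6.33%) were higher and 484 (3.45%) lower by the same rule, and with CPM + 1 in place of TPM + 1 the split was 558 and 163. Ratios in the following are of CPM, with exact 95% Clopper-Pearson intervals that cover counting error only. Nanos3 was 16.3-fold higher (interval 4.18 to 140), from 2 and 34 counts. Dppa3 was 6.71-fold higher (2.00 to 35.1), from 3 and 21 counts.

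Tfap2c was 2.97-fold higher with SGC0946 (2.56 to 3.45), and Dnd1 2.88-fold (1.18 to 8.01). Prdm1 was 1.90-fold higher (1.61 to 2.24), and its log2 ratio of TPM + 1 of 0.93 stayed under the threshold. Prdm14 had a ratio of 3.83 (0.379 to 189), and with 1 and 4 counts a difference was not detectable at this depth. All 6 ratios pointed to a higher level with SGC0946, and the counting interval lay above 1 for all but Prdm14. The spread between cultures is not known from these libraries. From RT-qPCR with independent repeats, not read here, the study reports that DOT1L inhibitors activated Prdm1, Dppa3, Nanos3 and Prdm14. Dot1l itself was at 62.1 TPM without and 66.8 TPM with the inhibitor, which acts on the enzyme and not on its transcript. The 9 trophoblast markers summed to 1529 TPM without and 1194 TPM with SGC0946, the 4 endoderm markers to 22.8 and 10.1 TPM and the 4 fibroblast markers to 269 and 281 TPM. The 7 naive markers summed to 313 and 232 TPM, but Tbx3 alone made up most of that sum (296 and 187 TPM) and the other 6 stood higher with SGC0946, where 2 of the 6 measured, Nr5a2 and Dppa5a, were higher and 0 lower by the ratio rule, with a median of 0.70. The part of all these markers in the differences was not tested.

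Sorting at Day 3 asks which cells carry the germ cell genes. Genes were called with the quasi-likelihood test of edgeR at an unadjusted p under 0.05 and a fold change over 2, and p-values adjusted by Benjamini-Hochberg over all 11018 genes tested are given beside. Prdm1, Nanos3 and Dppa3 were called higher in c-Kit+ cells, 3 of the 4 members that passed the filter on low counts, and none was lower. These 3 had 8, 0 and 2 counts in the c-Kit- libraries together and passed the filter through their level in c-Kit+ cells, so that once tested they had to differ. Nothing is read from the count of 3 of 4, nor from the p-values given for these 3 below. In the background 10.8% of the genes were called higher and 13.6% lower. The 3 members also passed at an adjusted p under 0.05, where 9.98% of the genes were called higher and 12.9% lower.

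Prdm1 was at 60.4 ± 18.6 CPM in c-Kit+ and 2.22 ± 2.36 CPM in c-Kit- cells (SD, n = 2 each), a log2 fold change of 4.77 ± 0.49 (SE; edgeR adjusted p = 7.58e-05). The size depended on 1 library, since it was 6.62 without c-Kit- replicate 2 and 3.95 without c-Kit- replicate 1. Dppa3 was at 30.7 ± 7.35 against 0.552 ± 0.00592 CPM (SD, n = 2 each), a log2 fold change of 5.67 ± 0.55 (SE; edgeR adjusted p = 5.66e-05). As a ratio of pooled CPM, from 109 and 2 counts, this was 55.4 with a counting interval of 15.0 to 463. Nanos3 was at 24.7 ± 3.51 CPM (SD, n = 2) against 0 in both c-Kit- libraries, at least 15.0-fold higher against a floor of 3 counts per library (edgeR adjusted p = 0.000121).

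Tfap2c did not follow this pattern. It was at 290 ± 8.92 CPM in c-Kit+ and 254 ± 16.0 CPM in c-Kit- cells (SD, n = 2 each), a log2 fold change of 0.23. The 95% interval was 0.00 to 0.46 (edgeR unadjusted p = 0.0474, adjusted p = 0.0953), and the adjusted p was 0.417 with DESeq2. The interval excludes a 2-fold difference. In the same libraries the 9 trophoblast markers summed to 4531 to 5112 TPM in c-Kit- cells and 702 to 965 TPM in c-Kit+ cells. Of the 8 markers tested, 6 were lower in c-Kit+ cells, among them Gata2, Krt18 and Krt8. Tfap2a was called higher, from 15 and 38 counts (edgeR adjusted p = 0.0807), but not by DESeq2. All 9 had over 3 counts in both c-Kit- libraries. The naive markers summed to 126 to 136 TPM in c-Kit- and 195 to 245 TPM in c-Kit+ cells. Klf4, the largest part of that sum, averaged 105 TPM in c-Kit- and 84.2 TPM in c-Kit+ cells. Tbx3 averaged 12.5 and 4.16 TPM, and neither was called. Of the 6 naive markers tested, 3 were called higher in c-Kit+ cells and 0 lower. The endoderm markers summed to 19.9 to 31.9 TPM in c-Kit- and 5.40 to 14.7 TPM in c-Kit+ cells, and the fibroblast markers to 135 to 161 and 44.0 to 55.1 TPM. Sox17, the only endoderm marker tested, was called lower and made up most of the c-Kit- sum (21.5 against 3.11 TPM on average). Gata6 went the other way, from 2 to 22 counts, a CPM ratio of 11.2 with a counting interval of 2.75 to 98.1. Foxa2 averaged 3.47 and 3.48 TPM, and Gata4 had 3 and 0 counts. The part of these markers in the levels of Tfap2c and the other members was not tested.

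Prdm14 and Dnd1 fell below the filter in the sorted libraries. For Prdm14 all 4 libraries had 3 counts or fewer, so no fold is given. For Dnd1, with 9 counts against 3 in all, the ratio of pooled CPM was 3.05 with a counting interval of 0.761 to 17.5, and a difference was not detectable at this depth. In a fit with no filter the unadjusted edgeR p was 0.191 for Prdm14 and 0.209 for Dnd1.

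**Figure D2:**
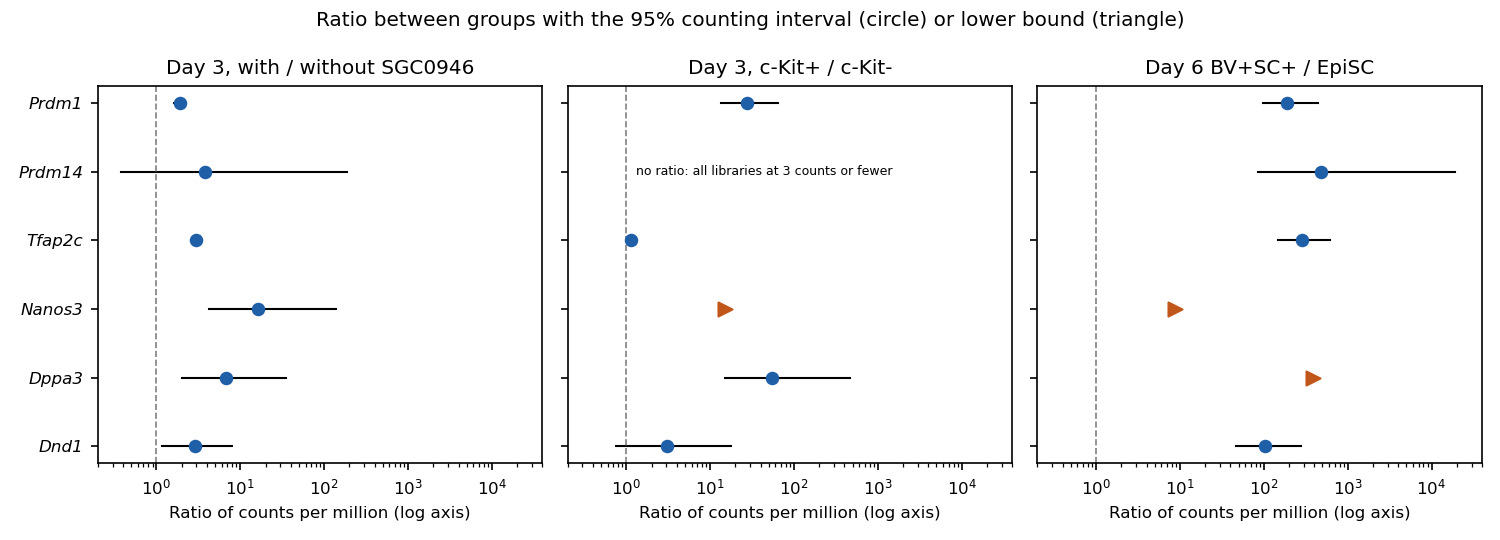
Ratio of CPM between groups for each gene in the 3 comparisons (log axis, dashed line at 1): circles are ratios of pooled CPM with the 95% counting interval, and triangles are lower bounds against 3 counts per library. Tfap2c lies at 1.14 between c-Kit+ and c-Kit- cells, where Prdm1 and Dppa3 lie at 27.2 and 55.4, and in the BV+SC+ panel all 6 genes lie above 1.

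Between Day 6 BV+SC+ cells and EpiSCs, all 6 genes were tested and called higher, against 17.2% of 11792 genes called higher and 17.8% lower, and all 6 also passed at an adjusted p under 0.05, as did 16.8% of the genes on the higher side and 17.2% on the lower. Because EpiSCs had few or no counts, each passed the filter through its level in BV+SC+ cells. Nothing is read from the count of 6, nor from the p-values given for the members below. Prdm1 and Dppa3 were the sorted genes. They stood at 180 ± 8.26 and 416 ± 4.88 CPM in BV+SC+ cells (SD, n = 2), against 0.931 ± 0.330 CPM (SD, n = 3) and 0 in EpiSCs.

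Tfap2c was at 296 ± 46.1 CPM in BV+SC+ cells (SD, n = 2) and 1.07 ± 0.136 CPM in EpiSCs (SD, n = 3), a log2 fold change of 8.10 ± 0.23 (SE; edgeR adjusted p = 1.42e-06). Prdm14 was at 56.4 ± 0.275 CPM against 0.109 ± 0.188 CPM, and from 1855 counts and 1 count the ratio was 479 with a counting interval of 85.8 to 18918 (edgeR adjusted p = 9.32e-06). The fitted log2 fold change of Prdm14, 8.73, was 12.08 without EpiSC replicate 1, the library with the single count.

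Dnd1 was at 73.2 ± 10.3 CPM against 0.766 ± 0.754 CPM, a log2 fold change of 6.65 ± 0.38 (SE; edgeR adjusted p = 1.23e-05), and 7.72 without EpiSC replicate 3. Nanos3 was at 9.45 ± 4.62 CPM against 0, at least 8.82-fold higher (edgeR adjusted p = 0.00124). Without BV+SC+ replicate 1 its fitted log2 fold change fell from 9.27 to 8.38. It had the largest relative spread of the 6 genes between the 2 BV+SC+ libraries, which have different medium labels. Over the same groups the 7 naive markers summed to 6.25 to 45.2 TPM in EpiSCs and 3112 to 3863 TPM in BV+SC+ cells, with all 7 over 3 counts. Dppa5a alone, at 2966 TPM on average, made up most of the BV+SC+ sum. Of the 7, 6 were called higher and 0 lower. Klf4 was not called, at 17.4 ± 20.0 TPM (SD, n = 3) in EpiSCs and 6.29 ± 4.86 TPM (SD, n = 2) in BV+SC+ cells. The trophoblast markers summed to 24.1 to 33.9 TPM in EpiSCs, and in BV+SC+ cells to 131 TPM in replicate 1 and 44.0 TPM in replicate 2. Of these 9, 3 were tested and all 3 were called higher in BV+SC+ cells: Gata2 (log2 fold change 5.55, from 3 counts in EpiSCs), Krt8 (1.78) and Krt18 (1.35). The fibroblast markers summed to 23.1 to 37.7 and 2.83 to 3.90 TPM, and the endoderm markers to at most 1.21 TPM. The part of these markers in the differences was not tested.

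The files also give the mean length of the transcripts assigned to each gene, a readout of which transcripts carry the reads. Prdm1 has coding transcripts of 5281, 4025 and 2517 bases, the last listed for the sorted libraries only. It also has an 830-base transcript with a retained intron, which runs from 44528501, well upstream of the coding starts, to 44446717 on chromosome 10. The mean length was 3532 and 4018 bases in c-Kit+ cells, 3240 and 3117 bases without and with SGC0946, and 2485 and 2701 bases in BV+SC+ cells. The sorted libraries came from mRNA and the others from total RNA without ribosomal RNA. Between them, cells, kit and gene list cannot be told apart. Where only 3 transcripts are listed, the mean bounds the share of the 830-base transcript among Prdm1 molecules. That share was 48.2% to 62.8% and 41.4% to 58.0% in the 2 BV+SC+ libraries, and 24.6% to 45.9% and 28.4% to 48.6% without and with SGC0946. These are bounds from the assignment of RSEM and not measured junctions, and the ranges of the BV+SC+ and Day 3 libraries overlap. The TPM of Prdm1 depends on this assignment, since its log2 fold change between BV+SC+ cells and EpiSCs was 7.55 on counts and 8.54 with the lengths in the fit. The EpiSC lengths in that fit rest on only 4, 2 and 2 counts.

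Dnd1 has 1 coding transcript of 1451 bases and 2 with a retained intron, of 1804 and 2057 bases. The coding transcript made up 90.5% to 94.5% and 87.8% to 92.9% of Dnd1 molecules in the 2 BV+SC+ libraries. With SGC0946 at Day 3 it made up 43.2% to 66.9%, from 21 counts, and without it the mean of 1804 bases rested on 7 counts. Dppa3 was almost all the 833-base transcript wherever it had over 3 counts.

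**Figure D3:**
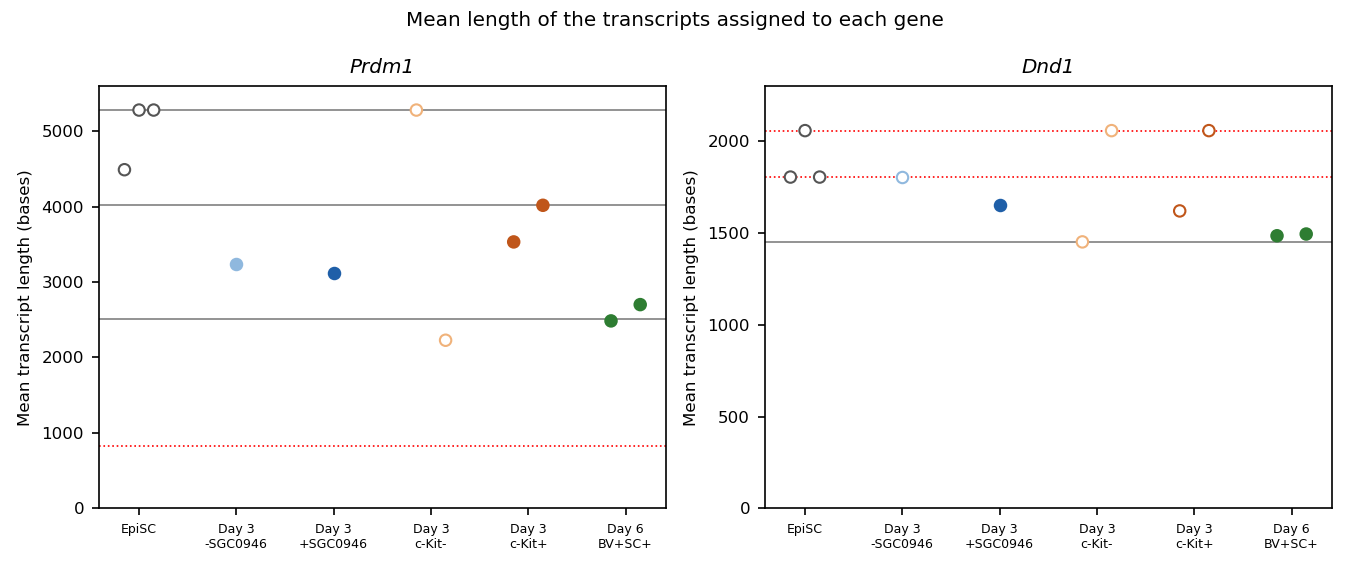
Mean transcript length in bases of Prdm1 and Dnd1 in each library; grey lines mark coding transcripts, dotted red lines those with a retained intron, and open circles are libraries with 10 counts or fewer. Prdm1 lies at 2485 and 2701 bases in BV+SC+ cells and at 3532 and 4018 in c-Kit+ cells, libraries that differ in kit and gene list. Dnd1 in BV+SC+ cells lies near its coding length of 1451.

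Some members share sequence or position with other genes. Dppa3 shares 451 bases at 98.2% identity with Dppa3-ps, and Dnd1 shares 959 bases at 93.7% identity with Dnd1-ps; both pseudogenes had 0 counts in the 4 sorted libraries, where they are listed. Dppa3 also shares 145 bases at 91.0% with Gm15620, at 0 counts there, and 450 bases at 91.1% with Gm47576. Dnd1, at chr18:36763671-36766214 on the minus strand, overlaps Wdr55 on the opposite strand by 140 bases. Wdr55 had 104 to 164 counts in the sorted libraries and 1131 and 896 in BV+SC+ cells. Strand use in counting is not given in the sources used here, so reads in that overlap cannot be told apart, and Dnd1 at Day 3, with 1 to 21 counts, is uncertain for that reason. Nanos3 overlaps Mir181c and Mir181d on the same strand, both at 0 counts in the sorted libraries.

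The genes around these factors were read as lists. A gene near 0 in one group is tested only through its level in the other and then has to differ, so the counts below are descriptions. Beside each count stands the share of all genes. That was 10.8% higher and 13.6% lower in c-Kit+ cells, 17.2% and 17.8% in BV+SC+ cells, and 6.33% and 3.45% with SGC0946. Of 14 early PGC genes, 12 were tested between c-Kit+ and c-Kit- cells, and 10 were higher and none lower, with a median log2 fold change of 2.87 against 0.03 over all genes tested. With 10 counts required in every library, 6 were higher. The 4 with the smallest p were Pou5f1 (4.34), Ifitm1 (3.29), Kit (5.28, the sorted gene) and Sox2 (8.13), pluripotency factors apart from the surface proteins IFITM1 and KIT. Between BV+SC+ cells and EpiSCs, 11 of 14 were higher and 1, Lin28a (-1.02), was lower, with a median of 4.12 against 0.05. Without EpiSC replicate 1 or BV+SC+ replicate 1 the number lower was 0. Esrrb (8.47), Alpl (4.81), Kit (4.91) and Ifitm3 (5.06) led by p. With SGC0946, 6 of 14 were higher and 1 lower by the ratio rule, the largest being Pou5f1 (3.01), Nanog (2.97) and Klf2 (2.88) as log2 ratios of TPM + 1, beside a median of 0.01 over all genes. The lower gene was Elavl2, at 12.2 and 5.17 TPM, whose counts did not fall (40 and 46, a CPM ratio of 1.10 with a counting interval of 0.706 to 1.73), so that its lower TPM comes from the transcript length assigned to it.

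Of 12 later germ cell genes, which PGCs express after reaching the gonad, only Tdrd5 passed the filter in the sorted cells, where it was higher (2.85). All 9 tested in BV+SC+ cells were higher there, but 6 of them had at most 2 counts over the 3 EpiSC libraries and passed the filter through BV+SC+ cells, which nearly fixed the direction. With 10 counts required in every library, 0 were called. Tdrd5 (log2 fold change 5.44) and Piwil2 (5.34), both of the piRNA pathway, were among the 4 with the smallest p. The other 2 were Dazl, an RNA-binding protein of germ cells, and Stk31, each at 0 counts in all EpiSC libraries and at 72.3 and 16.6 TPM on average in BV+SC+ cells. With SGC0946, 3 were measured and 1 was lower, Taf7l, from 2 counts to 1.

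Of 8 genes lowered in early PGCs, 5 were lower in BV+SC+ cells, with a median log2 fold change of -1.65 against 0.05 over all genes. The DNA methyltransferase gene Dnmt3b (-4.48), Uhrf1, which brings the maintenance methyltransferase to DNA (-1.30), Myc (-4.62) and Dnmt3a (-1.60) led by p, and Fgf5 was the fifth. Dnmt3l, a cofactor of DNA methyltransferases, was higher, from 0 counts in EpiSCs to 72.4 TPM on average. In c-Kit+ cells Myc (-1.91) and Dnmt3a (-1.17) were lower and Otx2, a regulator of the primed epiblast, was higher (5.39), of 6 tested. The median of these genes there was 0.06, close to the 0.03 over all genes. Without c-Kit+ replicate 1 only 1 was lower. Only Dnmt3l passed the ratio rule with SGC0946, with 0 counts without and 15 with it.

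Upstream of the factors, 0 of 10 BMP genes tested were called by edgeR between c-Kit+ and c-Kit- cells, and 0 by DESeq2, while 4 had an unadjusted p under 0.05 at folds under 2. That 0 is close to the threshold: Smad1 stood at -0.98 (edgeR adjusted p = 0.0396), 1 gene was called lower when any 1 of the 4 libraries was left out, with the lengths in the fit or with 10 counts required in every library, and 2 with no filter. With SGC0946, 0 of 11 passed the ratio rule. Of 7 WNT and mesoderm genes, 4 were higher in c-Kit+ cells: T (8.55), the T-box factor of the primitive streak, Msx1 (1.87), Eomes (3.46) and Cdx2 (1.53). None was lower, but 1 was without c-Kit- replicate 2 or c-Kit+ replicate 1. T was also higher with SGC0946 (log2 ratio of TPM + 1 of 2.29), and so was Eomes, at 2 and 20 counts (1.35), while Wnt3 (-1.27) and Cdx2 (-1.01) were lower, of 7 measured. In BV+SC+ cells the BMP target Id3 (1.99) and the ligand Bmp4 (2.59) were higher, and Smad5 (-1.01), Bmpr2 (-1.01) and Id1 (-1.27) lower, of 10 tested. The number lower was 1 without EpiSC replicate 1 and 0 without BV+SC+ replicate 2. Msx2 (5.15) was the only gene of 5 called in the WNT list there, against 4 higher without BV+SC+ replicate 2 and 2 lower without BV+SC+ replicate 1.

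Among partners of the factors, Cbfa2t2, a co-repressor that binds PRDM14, was higher in c-Kit+ cells (1.37) and was the only one of 6 cofactors of PRDM1 and PRDM14 called in any comparison. In BV+SC+ cells 0 of the 6 were called by edgeR or DESeq2, with 4 at an unadjusted p under 0.05, and 1 was higher without BV+SC+ replicate 1. The 5 to 6 tested genes of the NANOS family and partners of DND1 and NANOS3 were called in 0 cases by edgeR, DESeq2 or the ratio rule. An unadjusted p under 0.05 was seen for 3 of 5 in c-Kit+ cells and 1 of 6 in BV+SC+ cells, at folds under 2. Among the PRDM relatives reported here, Prdm9 (-2.35) was lower in c-Kit+ cells, though not without c-Kit+ replicate 1. Prdm11 was called higher there (1.33; edgeR adjusted p = 0.0550) but not by DESeq2, nor without c-Kit- replicate 2 or c-Kit+ replicate 1. Prdm16 (4.04) was higher in BV+SC+ cells, and Prdm8 (-5.68) and Prdm11 (-1.21) were lower. With SGC0946 only Prdm6 (-1.07) passed the ratio rule. Of the AP-2 relatives only Tfap2a had reads enough to test. It was 1.40 higher in c-Kit+ cells from 15 and 38 counts (edgeR adjusted p = 0.0807), but was not called by DESeq2. With SGC0946 it was at -1.10, where Tfap2c was higher.

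**Figure D4:**
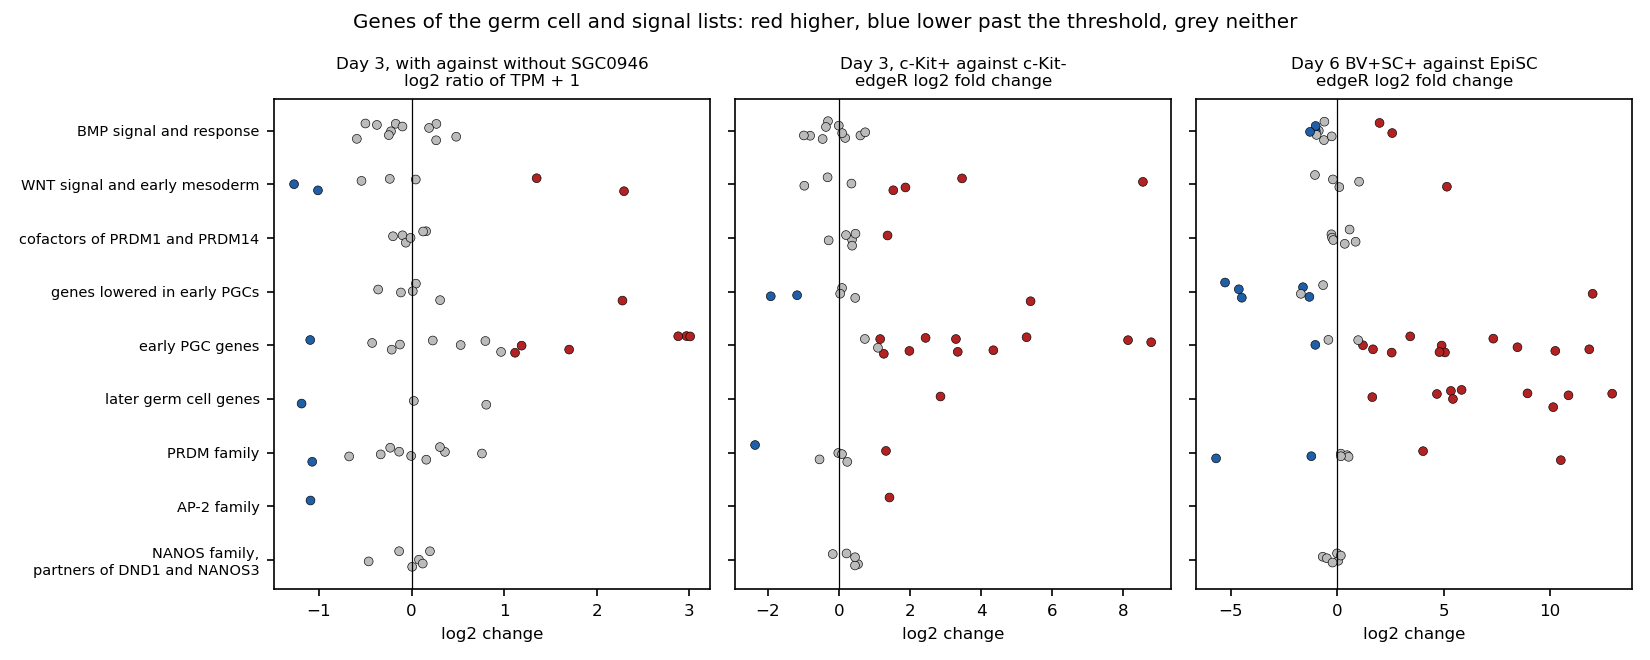
Log2 change of each listed gene in the 3 comparisons, 1 point a gene; red and blue points passed the threshold as higher or lower. In the early PGC list 10 of 12 points are red between c-Kit+ and c-Kit- cells, and in the later germ cell list 9 of 9 are red in BV+SC+ cells.

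The pattern of each member over the 11 libraries was set beside that of 12790 other protein-coding genes averaging 1 TPM or more, by Pearson's r of log2(TPM + 1), as a description. The points share kits, gene lists and depth. Prdm14 was most like Zfp42 (r = 0.996), 2410141K09Rik and Zfp936, and 147 genes had an r over 0.95 with it, against 7 for Prdm1. Zfp42, a marker of naive cells, was at 161 and 116 TPM in BV+SC+ cells and did not exceed 1.23 TPM elsewhere. Grhl3 (0.99) and Abca7 were among the genes most like Tfap2c. Dppa3 was most like Esrrb (0.99), Morc1 and Lima1, and Dnd1 was most like Nr0b1 (0.99), Lrriq4 and Car8.

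Nanos3 was most like Mfsd10 (0.98), Nr5a2 and Gdf3, and Prdm1 was most like Col9a1 (0.98), Zfp710 and Ptdss2, of which Col9a1 did not exceed 4.82 TPM. Among the members, Prdm14 and Dnd1 were the most alike pair (0.97) and Prdm14 and Tfap2c the least alike (0.40). These names depend on the libraries and the measure: of the 18 genes compared, 3 for each member, 2 stayed among the 3 most alike over the 7 libraries of 1 gene list, and 1 with Spearman's rho.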

How the data were processed

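The authors aligned reads with Bowtie2 to a GENCODE transcriptome and ran RSEM (1.3.1 in the submitters' processing notes). The authors deposited expected counts, which are estimated counts with no normalization, TPM computed by RSEM, and the mean and effective transcript length of each gene, 1 file a library, replicates not pooled. Total RNA without ribosomal RNA was used for the EpiSC, SGC0946 and BV+SC+ libraries and mRNA for the sorted cells. The other assays of the series were left out. Symbols came from GENCODE M21 (99.56% and 98.25% of identifiers in the 2 gene lists); the methods name another release.

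Expected counts were rounded and tested with edgeR 4.0.16 in R 4.3.3 (filterByExpr, TMM, quasi-likelihood test), each comparison in its own libraries. The methods do not say whether their threshold of p under 0.05 and fold change over 2 is adjusted. In simulated data with 200 genes changed, both fits were tested before use. The SGC0946 pair was compared as log2(TPM + 1), for genes over 1 TPM in either library, which understates the change of low genes. Counting intervals and floors cover counting error only, since PCR reads without molecular identifiers are not independent molecules. Shared sequence was searched with BLAST+ 2.17.0 (at least 100 bases and 90% identity). Replicates of a group differed by more than sampling noise (chi-square test of counts). Alternatives were DESeq2 1.42.0, other scaling, filters, pseudocounts, a replicate block and leaving out each replicate.

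Members and lists were chosen with earlier results of these data known. Named from each pathway list were up to 4 called genes with the smallest p in each replicated comparison and up to 3 with the largest change with SGC0946, and the 3 genes most like each member. Prdm16, Prdm8, Prdm11, Dnmt3l, Fgf5, Lin28a, Id1, Smad1 and Elavl2 were named where they complete a count. Some items that these rules select are not reported here.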

Additional observations from a re-analysis of the deposited data

How the results depend on the processing

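The members called higher stayed 6 of 6 in BV+SC+ cells, 3 in c-Kit+ cells and 4 with SGC0946 in the alternatives that tested them, except that requiring 10 or more counts in all libraries left 0 called in c-Kit+ cells (only Tfap2c was then tested), and no member could be tested in BV+SC+ cells. No member turned direction. In c-Kit+ and BV+SC+ cells the members called enter a fit through their level there, which nearly fixes the call. Nothing is read from those counts staying the same. That filter lowered the counts of genes called to 710 higher and 998 lower in c-Kit+ cells and 1169 higher in BV+SC+ cells, and those of the listed pathway genes to 9 higher in c-Kit+ cells and 9 higher and 6 lower in BV+SC+ cells, from 19, 26 and 11. With no filter 3089 genes were called higher at Day 6, and 6 pathway genes lower in c-Kit+ cells (3 in the main fit). Leaving out 1 replicate gave 3 to 5 pathway genes lower in c-Kit+ cells, 5 without c-Kit- replicate 2. With SGC0946, CPM + 1 in place of TPM + 1 gave 558 genes higher, 163 lower and 3 pathway genes lower, and TPM over 1 in both libraries gave 374 and 181. Of the most alike genes, 2 of 18 remained with 7 libraries and 1 with Spearman's rho. The cause of these shifts was not tested beyond the smaller number of genes tested under the filters. Fitted log2 fold changes of genes at 0 in one group depend on the prior: DESeq2 gave 12.63 for Dppa3 (main 14.75) and 7.16 for Nanos3 (main 9.27) in BV+SC+ cells, and for Nanos3 with SGC0946 the log2 ratio was 2.50 with CPM + 1 (main 3.34). The replicate numbers mark no shared culture in the labels, and the correlation of deviations of same-numbered libraries was 0.12 in the sorted cells, with 2 pairs, and -0.03 and -0.00 in EpiSCs and BV+SC+ cells. With the replicate block the members called stayed at 3 and 6, the genes called were 1206 higher and 1487 lower in c-Kit+ cells, and 1954 higher and 2073 lower in BV+SC+ cells; Dnd1 moved from 6.65 to 7.71. Depth limits Prdm14 and Dnd1 at Day 3.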
